A study of Mus musculus with 38 samples.

Results

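The TALE homeobox cofactors Meis1, Meis2, Meis3, Pbx2, Pbx3 and Pknox1 were followed through retinoic acid (RA) differentiation of mouse embryonic stem cells. These 6 genes were chosen by name, from the 23481 genes of the bulk table, and their values were read in every bulk library and in the single cells of both other assays. All cells were of the E14 line. mESCs (0 h) grew in 2i/L medium, which holds 1 µM MEK inhibitor PD0325901, 3 µM GSK3 inhibitor CHIR99021 and 1000 U/ml LIF, and were then moved to N2B27 medium with 0.25 µM all-trans RA for up to 96 h. Cells were sorted on surface CD24 and PDGFRA, which mark the ectoderm-like and the XEN-like (extraembryonic endoderm) cells of this system. The bulk data comprised 25 libraries of 3′ ends counted by unique molecular identifiers (UMIs): 10 time points with a second mESC library, gates of PDGFRA- cells by CD24 signal at 48 h (4 gates, Q1 to Q4) and 72 h (3 gates, T1 to T3), a PDGFRA+/CD24- gate at 72 h, and sorted cells at 96 h. The sorted ectoderm-like (PDGFRA-/CD24+) and XEN-like (PDGFRA+/CD24-) cells had 2 libraries each, called biological replicates by the submitters. The remaining libraries were an ectoderm-like culture after 5 passages and a XEN-like culture after 3 weeks, both in N2B27 with 20 ng/ml EGF and 10 ng/ml FGF2 and no added RA. Single cells were measured by SCRB-seq, a 3′ UMI method, at 9 time points and by SMART-seq2 at 4.

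TALE proteins share a homeodomain that is longer by a few residues between its first helices. PBX proteins bind DNA together with HOX proteins, and the MEIS proteins and PKNOX1 (also named PREP1) bind PBX, hold it in the nucleus and join these complexes on enhancers. In the embryo the family works with the Hox genes in the hindbrain, the limb and blood stem cells, and Meis2 is also known as Stra10, for its induction by RA in mouse carcinoma cells.

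Promoter windows of RefSeq (build GRCm38.p6, 250 bases before to 50 after the start) were found for 4 of the 6 genes, Meis1, Meis2, Meis3 and Pbx2. Those of Meis1 and Meis2 are shown because most of the results turn on these genes. The Meis1 window is chr11:19018920-19019219 on the minus strand and the Meis2 window chr2:116064570-116064869 on the minus strand. Both are written 5′ to 3′ on the strand of the gene, and capitals mark the matches to the motifs named after them.
Meis1: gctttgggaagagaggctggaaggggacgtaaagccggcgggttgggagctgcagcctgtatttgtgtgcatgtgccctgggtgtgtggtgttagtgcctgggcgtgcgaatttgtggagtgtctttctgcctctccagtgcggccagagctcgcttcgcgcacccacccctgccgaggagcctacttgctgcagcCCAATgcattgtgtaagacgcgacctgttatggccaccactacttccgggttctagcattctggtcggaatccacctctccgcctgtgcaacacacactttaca
Meis2: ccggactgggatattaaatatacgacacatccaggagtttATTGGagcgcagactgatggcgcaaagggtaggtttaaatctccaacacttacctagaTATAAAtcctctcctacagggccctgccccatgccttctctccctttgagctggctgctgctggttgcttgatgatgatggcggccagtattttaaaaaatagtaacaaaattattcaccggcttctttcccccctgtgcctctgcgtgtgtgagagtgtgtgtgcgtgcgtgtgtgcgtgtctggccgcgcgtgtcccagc

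In the Meis1 window the capitals are a CCAAT match 54 bases before the start. In the Meis2 window they are CCAAT read on the other strand, 210 bases before the start, and TATAAA, 152 bases before it. Searched on both strands, CCAAT stood in 37.4% of the 32851 windows of the table and TATAAA in 13.6%. The letters TGACAG (a MEIS site), TGATNNAT (a PBX-HOX site) and AGGTCA (a nuclear receptor half-site) were in none of the 4 windows, and they stood in 19.2%, 8.85% and 16.3% of all windows. The Meis3 window (chr7:16175145-16175444, plus strand) held AGTTCA on the minus strand 22 bases before the start, letters found in 14% of windows. The Pbx2 window (chr17:34592009-34592308, plus strand) held GGGCGG on the minus strand 142 and 83 bases before the start, found in 35.7% of windows. GC content was 58.3% for Meis1, 51% for Meis2, 66.7% for Meis3 and 76% for Pbx2, against a median of 52.7% over all windows. Such matches describe letters only.

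The bulk libraries held 1063830 to 2459483 UMIs (median 1665383), and each count was divided by its library's total (CPM). The conditions other than mESCs and the sorted cells had 1 library each, so ratios between them carry exact 95% intervals of counting error and no test. In these comparisons a gene counted as higher or lower when its CPM ratio passed 2-fold and both libraries together held at least 20 UMIs. In bulk, fewer cells of a type and less RNA per cell cannot be told apart. Meis1 (2385 UMIs) and Meis2 (1903 UMIs) were well counted over the 25 libraries. Pknox1 (341), Pbx2 (303), Meis3 (194) and Pbx3 (46) were sparse. The counting carries no gene length and its use of strand is not given in the sources used here. Levels were therefore not compared between genes, and antisense transcripts annotated across Meis1 and Pknox1 and the 3′ end of Gpsm3 beside Pbx2 could share their UMIs.

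Meis1 was near 0 in mESCs and high from 48 h on. The first mESC library held 1.31 CPM and the second 2.18 CPM, followed by 1.47 at 6 h, 2.20 at 12 h, 8.47 at 24 h, 18.2 at 36 h, 70.3 at 48 h, 73.3 at 60 h, 93.7 at 72 h, 81.4 at 84 h and 72.3 at 96 h. The libraries to 12 h lay together below 3 CPM, and those from 48 h on lay above 70 CPM. The level rose from 12 h to 24 h by a ratio of 3.84 (95% interval 1.36 to 13.3, on 5 and 17 UMIs) and from 24 h to 48 h by a ratio of 8.31 (5.04 to 14.6). Against the first mESC library the 48 h level was 53.6-fold higher (18 to 262), an interval that is wide because the mESC library held 3 Meis1 UMIs, and against the second, with 5 UMIs, it was 32.3-fold higher (13.6 to 101). At 96 h Meis1 stood at 0.77 of its 72 h level (0.61 to 0.97).

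Meis2 was highest from 48 h to 72 h and lower again by 96 h. The first mESC library held 15.7 CPM (36 UMIs) and the second 2.61 CPM (6 UMIs), a ratio of 0.166 (0.0571 to 0.397) between libraries of 1 condition. Of the 2 members with enough UMIs there, Meis2 alone passed 2-fold between the mESC libraries and none was higher, where 6.09% of all genes were lower and 6.35% higher. After the medium change Meis2 stood at 11.7 CPM at 6 h, 5.73 at 12 h, 24.9 at 24 h, 50.2 at 36 h, 73.6 at 48 h, 75.1 at 60 h, 78.5 at 72 h, 46.7 at 84 h and 28.7 at 96 h. The values from 48 h to 72 h lay within their counting intervals of each other. The 48 h level was 4.67-fold that of the first mESC library (3.25 to 6.88) and 28.2-fold that of the second, so that the size of this difference rests on which mESC library is used. At 96 h it stood at 0.366 of its 72 h level (0.264 to 0.501), while Meis1 stayed within 2-fold. Over the same libraries the summed level of 11 XEN markers went from 3445 to 12297 CPM and that of 10 ectoderm markers from 2581 to 1636 CPM, and their part in the lower Meis2 level was not tested.

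Among the other members, Pbx2, a widely expressed PBX partner of the MEIS proteins, had its highest level at 60 h. It began at 2.19 and 1.74 CPM in mESCs and went on at 4.89 at 6 h, 6.17 at 12 h, 7.97 at 24 h, 10.3 at 36 h, 11 at 48 h, 17.4 at 60 h, 5.99 at 72 h, 5.19 at 84 h and 4.61 at 96 h. The 60 h level was 7.96-fold that of the first mESC library (3.05 to 26.3), and the 96 h level was 0.265 of it (0.110 to 0.575). Meis3 began at 0 and 0.87 CPM in mESCs, where 0 UMIs allows up to 1.31 CPM (3 UMIs), and lay between 5.29 and 14.5 CPM from 48 h on. Its highest value, at 84 h, rests on 28 UMIs. Pbx3 lay between 0 and 2.44 CPM, with at most 6 UMIs in any library of the time course. Pknox1, a MEIS relative, lay between 4.84 and 10.1 CPM in all these libraries, and no time point passed 2-fold against the first mESC library. At 24 h, 2 of 4 members with enough UMIs were higher than at 0 h (Meis1 and Pbx2), where 9.77% of all genes were. At 48 h 3 of 4 were (Meis1, Meis2 and Pbx2), against 19.1% of all genes. At 96 h 1 of 3 was (Meis1), against 25.7%. With the second mESC library as 0 h Meis2 was higher as well at 24 h (ratio 9.54, 4.09 to 27.2) and 96 h (11, 4.74 to 31.2), so that 3 of 4 and 2 of 3 members were, against 13.9% and 26.8% of all genes, and the count at 48 h was again 3 of 4, against 21.6%.

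**Figure D1:**
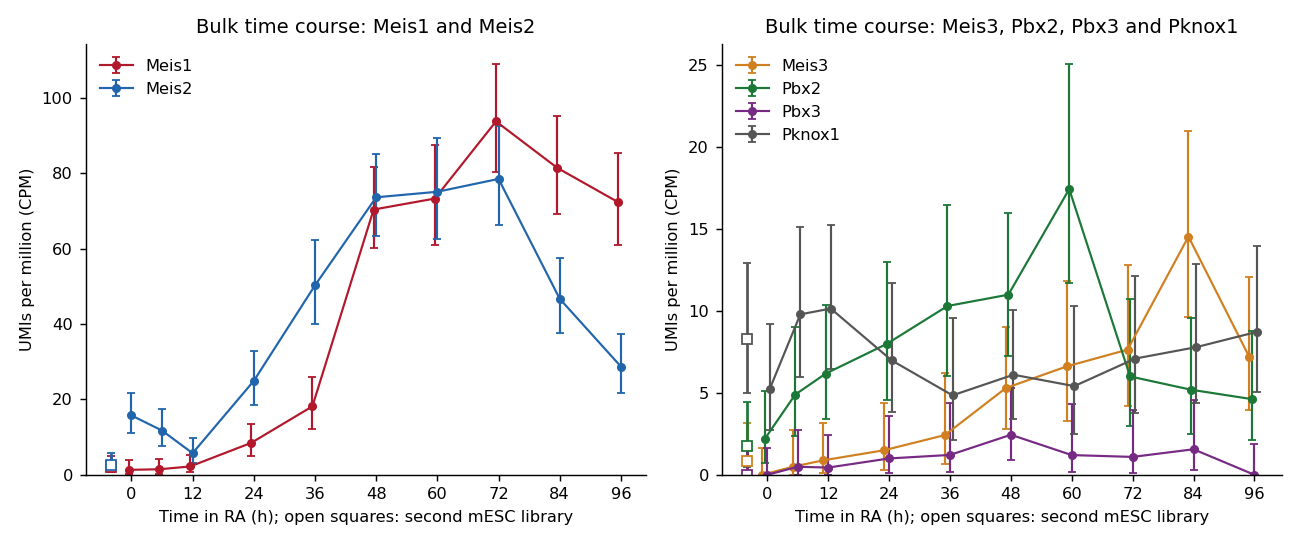
CPM of the 6 genes in the bulk libraries of the RA time course (x axis, hours in RA; y axis, CPM), 1 library per time point and both mESC libraries at 0 h, with bars for exact 95% Poisson intervals of counting error. Meis1 stays above 70 CPM from 48 h to 96 h, while Meis2 goes from 78.5 CPM at 72 h to 28.7 CPM at 96 h.

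The gates ordered the cells by CD24 signal. The Cd24a transcript followed them, from 19.4 CPM in Q1 to 127 CPM in Q4 at 48 h and from 49.7 CPM in T1 to 256 CPM in T3 at 72 h. Meis1 was higher in the gates of more CD24. At 48 h it stood at 44.1 CPM in Q1, 55 in Q2, 66.7 in Q3 and 107 in Q4, a ratio of 2.42 (1.81 to 3.26) between the outer gates. Meis2 stood at 70.9, 75.7, 87.4 and 90.9 CPM in the same order, and the ratio of 1.28 (0.99 to 1.66) held no difference beyond counting error. Pbx2 lay between 6.69 and 14.3 CPM, Pknox1 between 1.43 and 5.64 CPM, Meis3 between 1.26 and 3.57 CPM, and Pbx3 at 2 UMIs or fewer. Meis1 was the 1 member of 3 with enough UMIs to pass 2-fold from Q1 to Q4, where 5.58% of all genes did. The summed level of 10 ectoderm markers, which include Cd24a itself, moved with the gates as well, from 841 CPM in Q1 to 1453 CPM in Q4. That of 12 pluripotency markers went from 6664 to 4292 CPM, or from 962 to 575 CPM without Dppa5a, which holds most of that sum. Their part in the Meis1 values was not tested.

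At 72 h the CD24 gates held 66.8 CPM Meis1 in T1, 112 in T2 and 115 in T3. The ratio of T3 to T1 was 1.72 (1.31 to 2.27), under 2-fold but beyond counting error. For Meis2 the gates held 65.3, 94.4 and 68.3 CPM, and the ratio of T3 to T1 was 1.05 (0.77 to 1.43). None of the 3 members with enough UMIs passed 2-fold there, against 4.34% of all genes. From T1 to T3 the pluripotency markers went from 4643 to 1314 CPM (660 to 262 CPM without Dppa5a) and the XEN markers from 797 to 356 CPM. The ectoderm markers, Cd24a included, went from 1227 to 2377 CPM. The part of these 3 sets of markers in the Meis1 values was not tested.

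The PDGFRA+/CD24- gate at 72 h had far less Meis2 than the PDGFRA- gates of the same time. It held 3.67 CPM (5 UMIs), a ratio of 0.0489 (0.0157 to 0.115) to the 3 PDGFRA- gates together. Meis1 stood at 28.7 CPM there, a ratio of 0.294 (0.206 to 0.410), so it was lower as well but by less. Meis3 (5.14 CPM, ratio 0.96, 0.34 to 2.36), Pbx2 (5.88 CPM, ratio 0.76, 0.30 to 1.69) and Pknox1 (11 CPM, ratio 1.95, 0.94 to 3.98) had intervals that include no difference, and Pbx3 had no UMI, which allows up to 2.20 CPM. Thus 2 of 5 members with enough UMIs were lower in the PDGFRA+ gate, where 20.3% of all genes were. The ectoderm markers, Cd24a included, summed to 215 CPM in this gate, with 9 of 10 having a UMI, against 1227 to 2377 CPM in the PDGFRA- gates. The 11 XEN markers, Pdgfra included, summed to 4380 CPM against 356 to 797 CPM. The pluripotency markers summed to 7169 CPM in the PDGFRA+ gate, above the 1314 to 4643 CPM of the PDGFRA- gates, but Dppa5a made up 96.5% of it, and the other 11 summed to 248 CPM, below the 262 to 660 CPM of the PDGFRA- gates. The part of these markers in the differences was not tested.

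At 96 h the sorted lineages and mESCs were compared with replicates. The 3 groups of 2 libraries were fitted together with edgeR's quasi-likelihood test over 8945 genes, and adjusted p-values are those of Benjamini and Hochberg. The paper calls the replicates of all 3 groups biological. The labels name no separate cultures for them, so the p-values measure the spread between these libraries, which may be technical. With 2 libraries a group, the smallest p of an exact permutation test is 0.333. Pbx3 did not pass the filter on low counts and was not tested. Meis1, Meis3 and Pbx2 had at most 5 UMIs in an mESC library, so their place among the tested genes rests on the differentiated cells. Meis2 had 10 and 2 UMIs in the XEN-like libraries, so its place between the lineages rests largely on the ectoderm-like cells.

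Meis1 was highest in the ectoderm-like cells and intermediate in the XEN-like cells. The mESC libraries held 1.31 and 2.18 CPM, the sorted ectoderm-like libraries 152 and 108 CPM (130 ± 31, SD, n = 2) and the sorted XEN-like libraries 53.3 and 38.3 CPM (45.8 ± 10.6, SD, n = 2). No 2 groups overlapped. The log2 fold change from mESCs was 5.85 (SE 0.43, edgeR adjusted p = 1.16e-05) in ectoderm-like and 4.45 (SE 0.44, adjusted p = 7.4e-05) in XEN-like cells. XEN-like cells were lower than ectoderm-like cells by a log2 difference of -1.39 (SE 0.31, edgeR adjusted p = 0.0133). This last call was lost when ectoderm-like replicate 1 (edgeR adjusted p = 0.148), XEN-like replicate 1 (0.0705) or XEN-like replicate 2 (0.103) was left out.

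Meis2 was high in the ectoderm-like and low in the XEN-like cells. Its levels were 15.7 and 2.61 CPM in the mESC libraries, 103 and 65.3 CPM in the ectoderm-like libraries (84.3 ± 27, SD, n = 2) and 5.08 and 1.82 CPM in the XEN-like libraries (3.45 ± 2.30, SD, n = 2). The XEN-like libraries overlapped the mESC range, and both lay below the ectoderm-like libraries. The log2 fold change from mESCs to ectoderm-like cells was 2.89 (SE 0.57, edgeR adjusted p = 0.0041), with 4.61 when the first mESC library was left out and 2.11 without the second. XEN-like cells were lower than ectoderm-like cells by -4.37 (SE 0.67, adjusted p = 0.0025). Between XEN-like cells and mESCs the value was -1.48 (SE 0.74, adjusted p = 0.18), and it followed the mESC libraries, at 0.25 (adjusted p = 0.857) without the first and -2.24 (adjusted p = 0.0110) without the second. With no filter on low counts it was called as well (-1.49, edgeR adjusted p = 0.0329).

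Meis3 rose in ectoderm-like cells. It stood at 0 and 0.87 CPM in mESCs, 10.6 and 9.04 CPM in ectoderm-like and 4.57 and 4.56 CPM in XEN-like cells. The log2 fold change from mESCs was 4.00 (SE 0.82, edgeR adjusted p = 0.0054) in ectoderm-like cells, with an adjusted p of 0.0524 when ectoderm-like replicate 1 was left out. In XEN-like cells it was 2.99 (SE 0.92, edgeR adjusted p = 0.0369). With 0 and 2 UMIs in the mESC libraries these sizes follow 1 library, at 7.00 (ectoderm-like) and 6.01 (XEN-like) without mESC replicate 2, and 3.04 and 2.05 without mESC replicate 1. The XEN-like call was lost in DESeq2 (adjusted p = 0.153) and without mESC replicate 1, either ectoderm-like or either XEN-like library (adjusted p of 0.0719 to 0.195). The sorted lineages did not differ beyond error (-1.01, SE 0.61, edgeR adjusted p = 0.322).

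Pbx2 and Pknox1 did not pass the test in any of the 3 comparisons. Pbx2 stood at 2.19 and 1.74 CPM in mESCs, 7.78 and 8.40 CPM in ectoderm-like and 6.60 and 2.73 CPM in XEN-like cells. Its log2 value for ectoderm-like cells against mESCs was 1.70 (SE 0.60, edgeR adjusted p = 0.0707), which passed the threshold when the totals were used without TMM scaling (2.00, adjusted p = 0.0408) or when the 4 libraries of the comparison were fitted alone (1.71, adjusted p = 0.0464). Pknox1 stood at 5.25 and 8.27 CPM in mESCs, 11.7 and 5.81 CPM in ectoderm-like and 16.8 and 8.20 CPM in XEN-like cells, and the groups overlapped in every pair. Its log2 values were 0.06 for ectoderm-like cells against mESCs (SE 0.52, edgeR adjusted p = 0.956) and 0.63 between the lineages, higher in XEN-like cells (SE 0.50, adjusted p = 0.469). Pbx3 had 0 UMIs in both mESC and both XEN-like libraries, which allows up to 1.31 CPM per mESC library and 1.52 and 2.73 CPM per XEN-like library, and 10 and 4 UMIs (5.56 and 2.58 CPM) in the ectoderm-like libraries.

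Of the 5 members tested, 3 were called higher and 0 lower in ectoderm-like cells against mESCs, where 9.85% of all genes were called higher and 9.28% lower. In XEN-like cells 2 were called higher and 0 lower, against 12.3% and 10.5% of all genes. Between the lineages 0 were higher and 2 lower in XEN-like cells, against 6.98% and 5.81%. The 3 counts of 0 were also 0 at an unadjusted p under 0.05 in this edgeR fit and by adjusted p in DESeq2, while Meis2 was lower in XEN-like cells than in mESCs with no filter on low counts or without the second mESC library (values above). The median log2 value of the 5 was 2.89, 1.09 and -1.01 in these 3 comparisons, and that of all genes 0.05, -0.06 and -0.07. The comparisons share their libraries, and 3 of the 5 genes entered through the differentiated cells, where a higher value follows from the filter. Meis2 entered largely through the ectoderm-like cells, so the filter favours its lower call between the lineages. These counts and medians are therefore a description.

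Markers place the sorted cells and limit these values. The ectoderm list includes Cd24a and the XEN list Pdgfra, the genes of the 2 sorting markers, so these follow the sort by design. The 10 ectoderm markers summed to 558 and 284 CPM in the sorted XEN-like libraries, 15.7% of the ectoderm-like level by UMIs of both libraries together, and 9 and 8 of the 10 had a UMI. Mdk, a growth factor gene, held 429 and 166 CPM of these sums. Meis2 stood at 4.56% of its ectoderm-like level, below the marker sum, and Meis1 at 36.5%, above it. Single markers ranged from 0% for Pax6 to 41.1% for Mdk, and Mdk alone lay above Meis1. Pax6, Sox1 (1.33%), Hoxb2 (1.98%), Crabp1 (2.01%), Cd24a (3.43%) and Sox11 (3.90%) lay below Meis2. The other ectoderm markers, Nes, Fabp5, Prtg and Mdk, lay above Meis2. The 11 XEN markers summed to 485 CPM in ectoderm-like replicate 1 and 1779 CPM in replicate 2, and to 12049 and 6665 CPM in the XEN-like libraries. The pluripotency markers summed to 6267 and 4524 CPM in the XEN-like libraries and to 790 and 432 CPM in the ectoderm-like ones. Dppa5a alone gave 5947 and 4351 CPM of the XEN-like sums. The other 11 summed to 319 and 172 CPM there and to 297 and 159 CPM in the ectoderm-like libraries, but single genes differed in both directions. Of the 12, 5 were called higher in XEN-like cells, beside 6.98% of all genes. Besides Dppa5a these were Pou5f1 (log2 4.28), Klf4 (3.12), Klf2 (2.18) and Zfp42 (2.01). The 1 called lower was Sox2, also a neural gene (-4.37), beside 5.81% of all genes. What part cells with these markers have in the levels of the 6 genes was not tested.

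**Figure D2:**
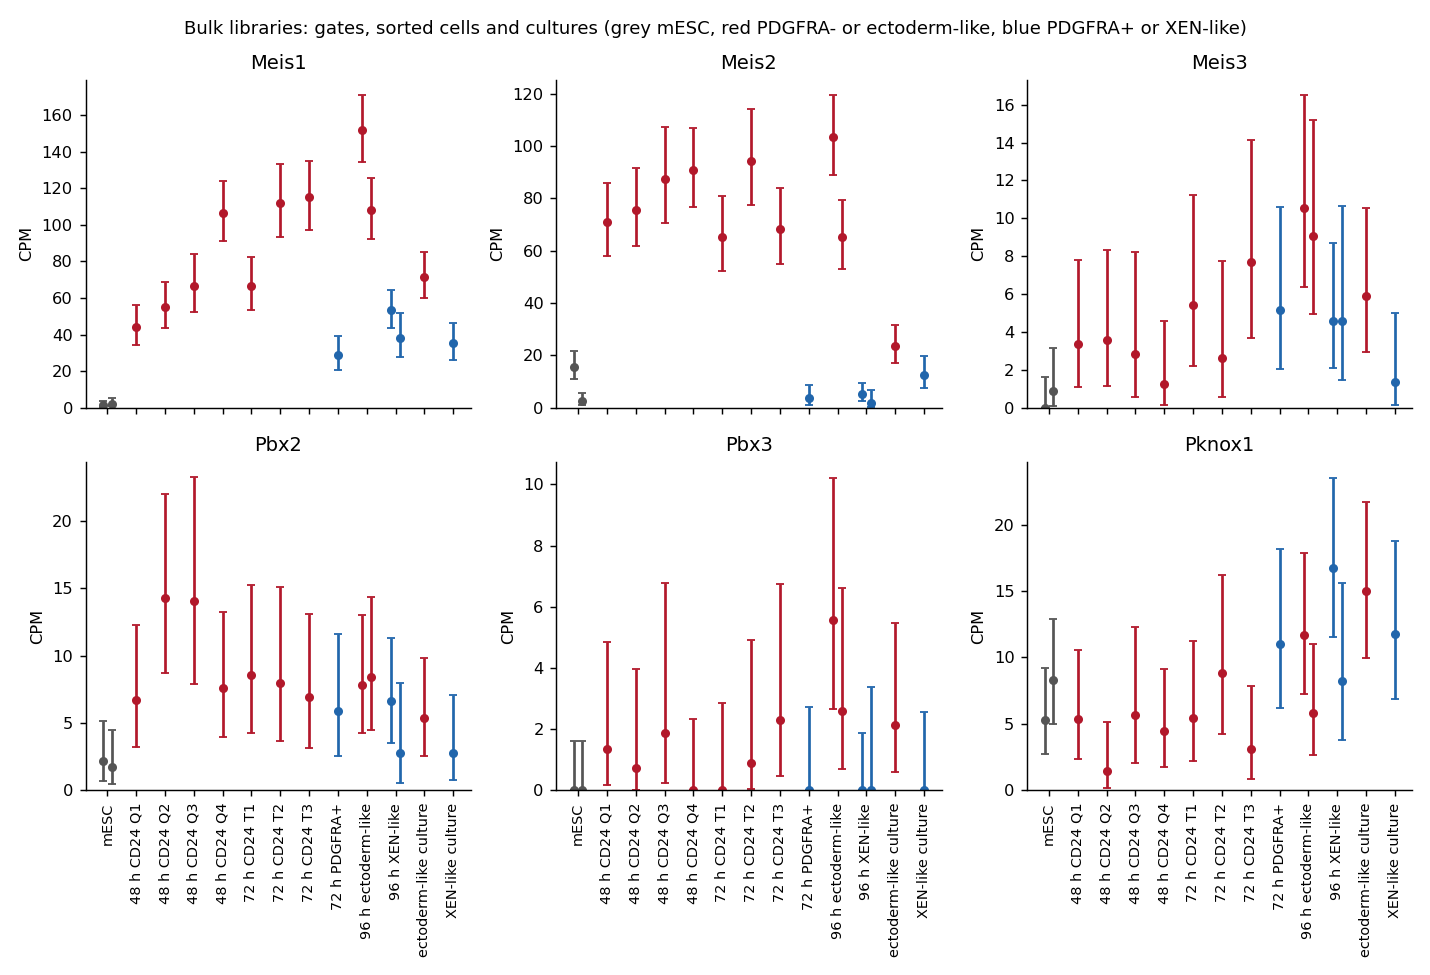
CPM of the 6 genes (y axis) in the 48 h and 72 h gates, the sorted 96 h cells with 2 libraries per lineage and the long-term cultures (x axis), with bars for exact 95% Poisson intervals of counting error. Meis2 is under 6 CPM in the PDGFRA+ gate and both sorted XEN-like libraries and at 65.3 CPM or more in the PDGFRA- gates and sorted ectoderm-like libraries.

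The long-term cultures were grown without added RA. In the ectoderm-like culture Meis1 stood at 71.7 CPM, 0.546 of the sorted ectoderm-like level (0.446 to 0.664), and Meis2 at 23.6 CPM, 0.275 of it (0.195 to 0.378). Pknox1 stood at 15.0 CPM (ratio 1.67, 0.96 to 2.90), Meis3 at 5.89, Pbx2 at 5.35 and Pbx3 at 2.14 CPM. Scaled to Gapdh in place of the library total, the ratios became 0.996 for Meis1, 0.501 for Meis2 and 3.05 for Pknox1, so that no member was 2-fold lower. By CPM 1 of 5 members was lower (Meis2), where 14.9% of all genes were. Against ectoderm-like replicate 1 alone 2 were, Meis1 standing at 0.473 (0.382 to 0.583) and Meis2 at 0.228, and against replicate 2 alone Meis1 stood at 0.665, Meis2 at 0.361 and Pknox1 at 2.58 (1.18 to 6.21). The share of 14.9% is for both sorted libraries together, and none is given for each alone. The culture also held 3872 CPM of 5 mesenchyme markers, all with a UMI, against 13.9 and 12.9 CPM in the sorted ectoderm-like libraries. Its ectoderm markers summed to 1581 CPM, against 3118 and 2695 CPM, and the part of these shifts in the lower Meis1 and Meis2 levels was not tested.

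In the XEN-like culture Meis2 stood at 12.4 CPM (18 UMIs), 3.17-fold the sorted XEN-like level (1.45 to 7.22). Against the sorted replicate 1 alone the ratio was 2.44 (1.07 to 5.93), and against replicate 2, with 2 UMIs, 6.81 (1.63 to 60.5). Meis1 stood at 35.2 CPM, 0.734 of its sorted level (0.523 to 1.02). Pknox1 stood at 11.7, Pbx2 at 2.76 and Meis3 at 1.38 CPM, and Pbx3 had no UMI, which allows up to 2.07 CPM. Thus 1 of 4 members was higher than in sorted cells, against 24.2% of all genes. The ectoderm markers summed to 1517 CPM in this culture, 966 CPM of it Fabp5, above the 284 to 558 CPM of the sorted XEN-like cells and near the value of the ectoderm-like culture, with 9 of 10 having a UMI in each culture, and their part in the Meis2 value was not tested. Between the cultures, Meis1 was lower in the XEN-like one (ratio 0.490, 0.348 to 0.682), the 1 of 3 members past 2-fold where 22.6% of all genes were. The Meis2 ratio was 0.527 (0.287 to 0.931), against 4.56% between the sorted cells.

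Ordered over the 25 libraries, Meis1 ran from 152 CPM in ectoderm-like replicate 1 through T3 (115), T2 (112), ectoderm-like replicate 2 (108) and Q4 (107) down to the mESCs, and the last 4 of these had overlapping counting intervals. The PDGFRA+ gate, the XEN-like culture and the sorted XEN-like libraries followed one another between 28.7 and 53.3 CPM, with Q1 (44.1 CPM) among them. For Meis2 the order began with ectoderm-like replicate 1 (103), T2 (94.4), Q4 (90.9) and Q3 (87.4), whose intervals overlapped, and ended with the PDGFRA+ gate (3.67), the second mESC library (2.61) and XEN-like replicate 2 (1.82). For Pknox1 the order began with XEN-like replicate 1 (16.8) and the ectoderm-like culture (15.0), whose intervals overlapped, and ended with T3 (3.07, 4 UMIs) and Q2 (1.43, 2 UMIs).

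Over the same 25 libraries, the genes most like each member were found by Pearson's r of log2(CPM + 1) among 6403 genes with a mean of at least 10 CPM. For Meis1 they were Armcx3 (r = 0.94), Rcbtb2 (0.93) and Ndn (0.93). For Meis2 they included Crabp2, a carrier of RA in the cell (0.93), and Eno3 (0.92). For Meis3 they were Ccne2 (0.91), Atad1 (0.88) and Tspan6 (0.88), for Pbx2 they included Fam122b (0.80) and Raet1a (0.79), and for Pknox1 they were Rrp7a (0.78), Ncaph2 (0.76) and Ralb (0.75). Pbx3 had under 100 UMIs and was not ranked. Meis1 and Meis2 had r = 0.62 with each other. The libraries share time points and lineages, so these values describe shared profiles and carry no p.

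The other genes of the TALE, Hox and RA pathways were read in the same fit. Of 12 other TALE genes 4 were tested. In ectoderm-like cells against mESCs 3 were higher, beside 9.85% of all genes, with log2 values of 2.58 for Pknox2, a relative of Pknox1, and 1.19 for Tgif2 among them. The repressor Tgif1 was lower (-1.12), beside 9.28% of all genes. Between the lineages 3 were lower in XEN-like cells, beside 5.81%. Pknox2 was one of them, and with 0 UMIs in both XEN-like libraries it was at least 12.2-fold lower (3 UMIs over the group). Tgif1 was lower there too (-1.11), and in XEN-like cells against mESCs it was the 1 called (-2.23), beside 10.5% called lower. DESeq2 called 1 higher and 1 lower in ectoderm-like cells against mESCs, 1 lower in XEN-like cells against mESCs and 2 lower between the lineages. Pknox2, at 1.75 and 1.31 CPM in mESCs, entered the test through the ectoderm-like cells.

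Of 15 Hox genes of groups 1 to 5, the HOX partners of PBX and MEIS in the hindbrain, 5 were tested. All 5 stood under 5 CPM in each mESC library and so entered through the differentiated cells, and all 5 were called as rising from mESCs to the ectoderm-like cells, a count that the filter favours, beside 9.85% of all genes. The log2 values were 6.63 for Hoxb2, 4.92 for Hoxa2 and 3.65 for Hoxb4, and Hoxb3, with no UMI in mESCs, was at least 15.5-fold higher. None of the 5 was called in XEN-like cells against mESCs with edgeR, 1 of them having an unadjusted p under 0.05. Between the lineages 3 were lower in XEN-like cells, beside 5.81% of all genes: Hoxb2 (-5.49), Hoxa2 (-4.67) and Hoxb3 (-3.74). With means of 5.07, 0.25 and 0.51 CPM in XEN-like cells they entered through the ectoderm-like cells, so the filter favours this count as well. DESeq2 called 3 of the 5 in ectoderm-like cells against mESCs, 0 in XEN-like cells against mESCs and 1 between the lineages. Of 9 RA target genes 8 were tested. In ectoderm-like cells 4 were higher, beside 9.85% of all genes, among them Crabp2 (5.93), the RA-degrading enzyme Cyp26a1 (4.53) and the RA receptor Rarb, at least 26.9-fold with no UMI in mESCs. The 1 called lower, Cdx1, was at least 24.1-fold lower, beside 9.28% of all genes. Rarb and Cyp26a1, at means of 0 and 0.87 CPM in mESCs, entered the test through the differentiated cells, so their higher values there follow in part from the filter. Cdx1, at a mean of 21.6 CPM in mESCs and 0 CPM in both sorted lineages, entered through mESCs. Its lower value in each lineage thus follows from the filter as well. In XEN-like cells Cyp26a1 (7.58) and Rarb (at least 19.4-fold) were higher and Cdx1 at least 22.1-fold lower, beside 12.3% of all genes higher and 10.5% lower. All such bounds use the UMIs of both libraries of a group together, not the mean of their CPM. Against ectoderm-like cells, 1 was higher in XEN-like cells, Cyp26a1 (3.05), and 2 were lower, among them Crabp2 (-6.16), beside 6.98% of all genes higher and 5.81% lower. With 8 genes tested, a count of 1 is near such shares. DESeq2 gave the same counts for this list in all 3 comparisons. With genes at 0 UMIs set at these bounds, the list medians in ectoderm-like cells against mESCs were 1.89 (TALE), 3.96 (Hox) and 2.47 (RA targets), those in XEN-like cells against mESCs -0.63, 1.32 and 0.78, and those between the lineages -2.43, -3.74 and -0.86, beside the medians of all genes given for the members. The PBX-interacting gene Pbxip1 did not pass the filter on low counts.

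SCRB-seq gave the same genes in single cells, from 1 plate of 384 wells at each time. The wells above 2000 UMIs entered, which were 282 at 0 h, 335 at 6 h, 285 at 12 h, 290 at 24 h, 334 at 36 h, 277 at 48 h, 273 at 60 h, 235 at 72 h and 137 at 96 h, with median depths of 3559 to 5069 UMIs. The plates share all 384 well names and none of their wells held identical values. Cells of 1 plate are not replicates, so levels are UMIs per 10000 UMIs of the plate with exact Poisson intervals, and no test was run.

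Meis1 per 10000 UMIs was 0.0318 (6 UMIs) at 0 h, 0.0193 at 6 h, 0.00522 at 12 h, 0.0718 at 24 h, 0.172 at 36 h, 0.481 at 48 h, 0.819 at 60 h, 1.32 at 72 h and 0.784 at 96 h. It was lowest before 24 h and highest at 72 h, 41.5-fold the 0 h level (18.7 to 115). Meis2 was 0.154 at 0 h, 0.335 at 6 h, 0.162 at 12 h, 0.320 at 24 h, 0.913 at 36 h, 2.43 at 48 h, 3.20 at 60 h, 3.12 at 72 h and 0.757 at 96 h. Its 72 h level was 20.3-fold that at 0 h (13.9 to 30.6), and its 96 h level was 0.243 of that at 72 h (0.180 to 0.322), where Meis1 stood at 0.593 (0.432 to 0.805). Meis2 was thus over 2-fold lower at 96 h than at 72 h in both assays, and Meis1 in neither.

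Pbx2 was at 0.0212 per 10000 UMIs (4 UMIs) at 0 h and between 0.183 and 0.444 from 6 h on, a ratio of 9.26 (3.40 to 35.3) at 6 h against 0 h. From 60 h to 72 h its ratio was 1.38 (0.870 to 2.20) and from 72 h to 96 h 1.05 (0.609 to 1.79). The lower Pbx2 level after 60 h in bulk was thus not seen in these plates. Meis3 lay between 0.00522 and 0.150, highest at 48 h with 24 UMIs. Pbx3 had 0 UMIs at 0 h, 24 h and 96 h, which allows up to 0.0159, 0.0196 and 0.0413 per 10000, and its highest level was 0.275 (36 UMIs) at 72 h. Pknox1 lay between 0.0614 (36 h) and 0.308 (60 h) at all times but 72 h, where it had 2 UMIs (0.0153) after 53 UMIs at 60 h. At 48 h 4 of 5 members with enough UMIs were at least 2-fold higher than at 0 h, where 19.1% of all genes were. At 72 h 4 of 5 were higher (Meis1, Meis2, Pbx2 and Pbx3), against 23.8% of all genes. Pknox1 was lower, and no share of all genes is given for that direction. From 72 h to 96 h 2 of 4 were lower (Meis2 and Pbx3), against 14.9%, and from 60 h to 72 h 1 of 5 was lower (Pknox1), against 12.5%. From 60 h to 72 h 1 of 5 was also higher (Pbx3, ratio 4.73), with no share of all genes given for that direction. With 5 members, a count of 1 is near such shares.

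The share of cells with a UMI was compared after each cell was thinned to 2000 UMIs at random. For Meis1 the thinned share was 0.709% at 0 h (exact binomial 95% interval 0.086 to 2.54), 9.03% at 48 h and 20.0% at 72 h (15.1 to 25.7), and 10.2% at 96 h (5.70 to 16.6). Without thinning these shares were 1.06%, 17.7%, 30.6% and 19%. For Meis2 the thinned share was 1.77% at 0 h (0.58 to 4.09), 27.8% at 48 h, 38.5% at 60 h (32.7 to 44.5), 34% at 72 h and 10.2% at 96 h (5.70 to 16.6), and unthinned 5.32%, 47.3%, 60.1%, 51.1% and 21.2%. No cell type that lacks these genes is known in these plates, and the 0 h share stands for background and true transcripts together. The share of cells with Meis2 was lower at 96 h than at 60 h beyond these intervals, as was its level.

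**Figure D3:**
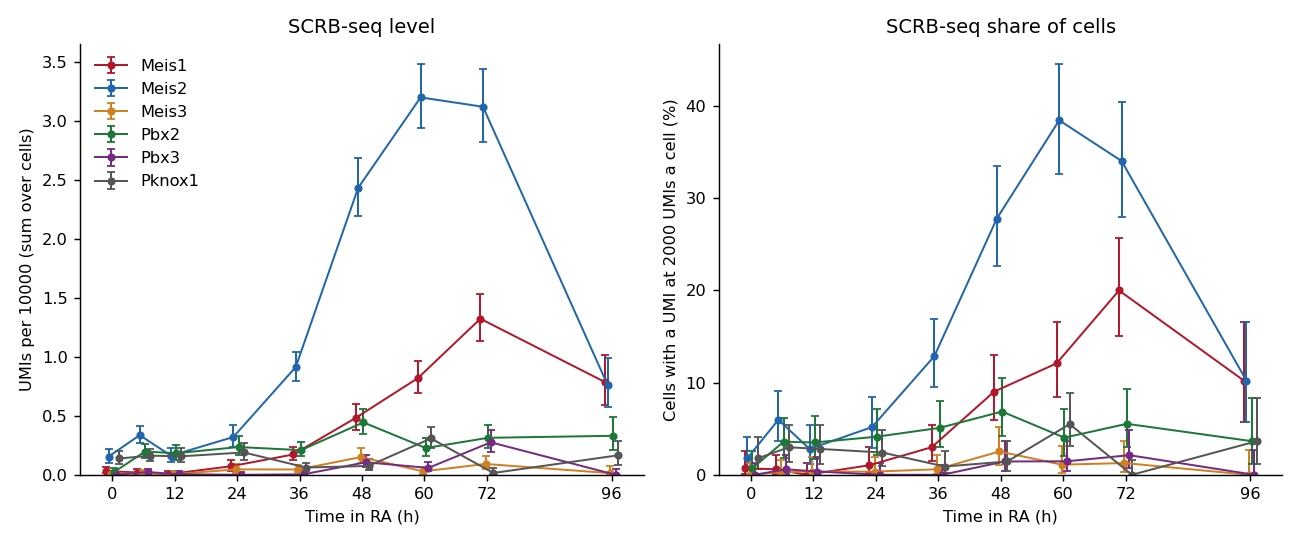
SCRB-seq levels of the 6 genes (y axis, UMIs per 10000 UMIs of the plate) over time in RA (x axis, hours), with exact 95% Poisson intervals of counting error and 1 plate per time point. Meis2 peaks at 3.20 at 60 h, Meis1 at 1.32 at 72 h, and Pknox1 is lowest at 72 h, at 0.0153.

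At 96 h the SCRB-seq cells were split by k-means into 2 clusters on 829 variable genes. A cluster of 64 cells was XEN-like, with the XEN markers Lamc1, Gata6 and Col4a1 among its 10 leading genes beside the pluripotency gene Dppa5a. The other cluster, of 73 cells and led by Sox11, is named ectoderm-like for its lower XEN and higher ectoderm markers. In the XEN-like cluster the XEN markers summed to 197 UMIs per 10000 and the ectoderm markers to 10.5, and in the ectoderm-like cluster to 80.1 and 25.5. The ectoderm-like cluster thus held more XEN than ectoderm markers. In the sorted ectoderm-like bulk libraries XEN markers were the lower, at 485 and 1779 CPM against 3118 and 2695 CPM of ectoderm markers. This cluster may therefore hold cells of both lineages, which was not tested. The median depth was 4122 and 3977 UMIs. The 6 members were left out of the genes that formed the clusters. Values between clusters are still a description, since they come from the same cells of 1 plate. Meis2 stood at 0.389 per 10000 (13 UMIs) in the XEN-like and 1.07 (42 UMIs) in the ectoderm-like cluster, a ratio of 0.364 (0.179 to 0.690). Meis1 stood at 0.539 and 0.994, a ratio of 0.542 (0.292 to 0.970). Pbx2 stood at 0.120 (4 UMIs) and 0.510 (20 UMIs), a ratio of 0.235 (0.0584 to 0.701). Pknox1 had 6 UMIs in each cluster, Meis3 1 and 0, and Pbx3 none. Other clustering settings moved 30 (log scale) and 25 (more variable genes) of the 137 cells, and 11 of the 70 cells above 4000 UMIs when these were clustered alone. The Meis2 ratio was then 0.385 to 0.424, with intervals up to 0.884. The Meis1 ratio was 0.566 to 0.668 and its interval included 1 in all 3 settings, and the Pbx2 ratio was 0.377 to 0.420, with 1 in its interval in 2 of the 3.

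SMART-seq2 covered whole transcripts in 82 cells at 0 h, 86 at 12 h, 89 at 24 h and 82 at 48 h, as RPKM. Part of the deposited values appear to have a moved decimal point. Among values from 100 to 1000 RPKM those printed with 5 digits outnumbered those with 4 digits 10.2-fold, as trailing zeros would give. Among the 71073 values from 1 to 10 none had 5 digits, and among those from 10 to 100 the excess was 15.3-fold. Values of 1 to 10 with 5 digits therefore appear to stand 10-fold too high, among those from 10 to 100. Of the 877 values of the members above 1 RPKM, 767 (87.5%) are of this ambiguous form. Means and medians were for this reason not used, and cells were counted above 0, above 1 and from 100 RPKM on, which the shift does not touch.

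Meis1 was above 1 RPKM in 9.76% of cells at 0 h (exact binomial 95% interval 4.31 to 18.3), 22.1% at 12 h, 48.3% at 24 h and 86.6% at 48 h (77.3 to 93.1), and only the intervals of 0 h and 12 h overlapped between neighbouring times. Meis2 was above 1 RPKM in 45.1% (34.1 to 56.5), 65.1%, 64% and 92.7% of cells (84.8 to 97.3) at these times. At 48 h 25.6% of cells (16.6 to 36.4) had at least 100 RPKM of Meis1 and 9.76% (4.31 to 18.3) of Meis2, and at 0 h no cell had either (0 to 4.40). Pbx2 went from 23.2% of cells above 1 RPKM at 0 h (14.6 to 33.8) to 57.3% at 48 h (45.9 to 68.2), and Pbx3 from 17.1% (9.66 to 27) to 54.9% (43.5 to 65.9). Meis3 stood at 24.4%, 14%, 10.1% and 35.4%, with overlapping intervals at 0 h and 48 h. Pknox1 stood at 65.9% (54.6 to 76), 64%, 57.3% and 47.6% (36.4 to 58.9), the only member with a lower share at 48 h than at 0 h, and its intervals overlapped. By the share of cells above 0, 3 of 6 members were at least 2-fold higher at 48 h than at 0 h (Meis1, Pbx2 and Pbx3), where 13.2% of all genes were. By the share above 1 RPKM 4 of 6 were (Meis2 also), against 13.3%.

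Meis1 and Meis2 were read in the same cells. Both were above 1 RPKM in 2 cells of 82 at 0 h, 15 of 86 at 12 h, 32 of 89 at 24 h and 68 of 82 at 48 h. Meis2 without Meis1 was found in 35, 41, 25 and 8 cells, Meis1 without Meis2 in 6, 4, 11 and 3, and neither in 39, 26, 21 and 3. Cells with Meis2 alone were the larger single-positive class at each time, and by 48 h 82.9% of cells had both. All 48 h cells came from 1 culture, so these shares have no replicate check.

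**Figure D4:**
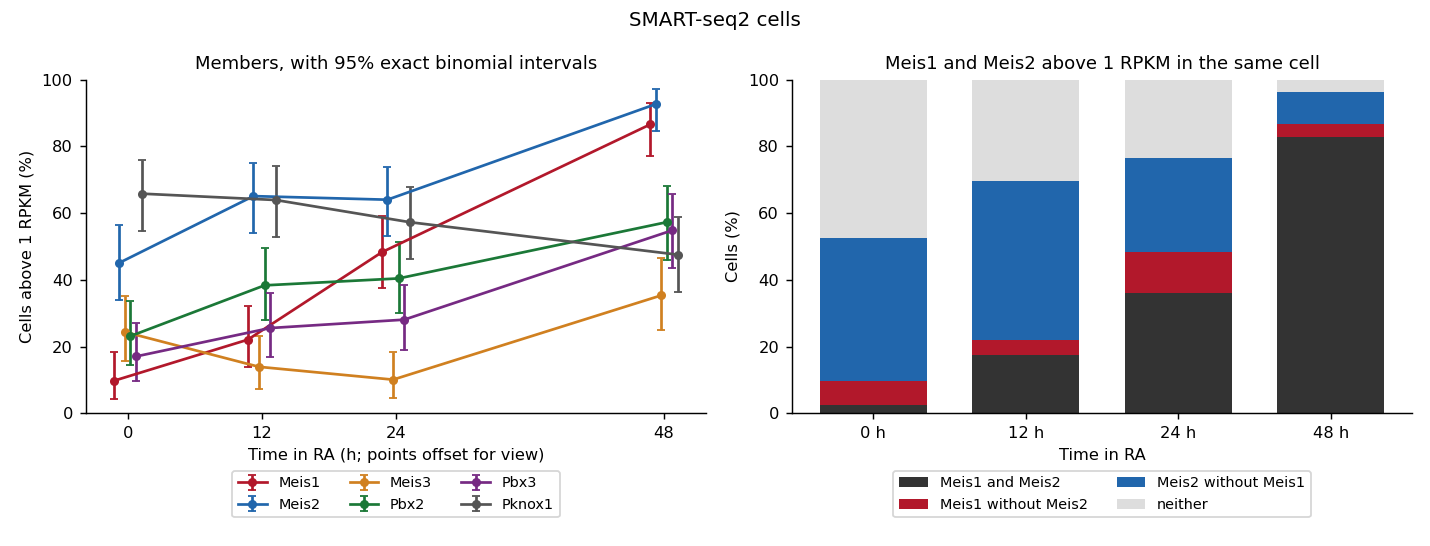
SMART-seq2 cells over time in RA (x axes, hours). Left, percent of cells above 1 RPKM for each gene with exact binomial 95% intervals; right, percent of cells with Meis1 and Meis2, 1 of them or neither above 1 RPKM. Cells with both go from 2 of 82 at 0 h to 68 of 82 at 48 h.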

How the data were processed

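The 6 genes, the gene lists and the tests were chosen with earlier results of these data known. The bulk and SCRB-seq values are UMI counts, which the authors made by alignment (bwa 0.7.4) against RefSeq mRNAs of mouse (mm10), mitochondrial and spike-in sequences, and deposited without normalization. The SMART-seq2 values are RPKM made by the authors with TopHat, Cuffquant and Cuffnorm from paired reads. In the deposited RPKM text the decimal point of many values from 1 to 10 appears to have moved, and 0.127% to 0.14% of values per time point held a decimal comma and were read as decimals. The planned median, quartiles and mean of RPKM and the rescaling of cells to one total were therefore replaced by shares of cells, compared where at least 10% of cells had a value in either sample, a choice made after the data were seen.

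Bulk counts were scaled to library totals (CPM). Of the 23481 genes, 2 with damaged entries were left out, and 2 repeated names were left out of the fits. edgeR 4.0.16 in R 4.3.3 (TMM, filterByExpr, glmQLFit) fitted the 6 libraries of mESCs and sorted cells, with adjusted p under 0.05 as the call. On simulated data it recovered 58, 59 and 52 of 100 genes changed 2.83-fold (ectoderm-like and XEN-like cells against mESCs, and between the lineages). Of 100 genes changed 8-fold it recovered 98, 99 and 99. A member that was not called may thus still differ. Ratios of single libraries have exact intervals conditional on the summed counts, and all such intervals cover counting error only. SCRB-seq clusters were made by k-means (50 starts) on the 5% of genes most variable for their mean, over a moving window of 100 genes, with the members left out. Doublets were not called. Named genes are all 6 members in every comparison, list genes past the edgeR threshold (at most the 5 largest changes per list and contrast) and the 3 most alike genes of each member with at least 100 UMIs. Some genes that the rule selects are not reported here. Alternatives were DESeq2 1.42.0, no low-count filter, totals without TMM, a replicate block, the 4 compared libraries alone, each library left out, Gapdh scaling, the second mESC library as 0 h, a cut-off of 4000 UMIs per cell, other clustering settings, a share above 1 RPKM and, added after the data were seen, each sorted library alone against the cultures. Promoters are RefSeq windows of GRCm38.p6, and gene overlaps are those of GENCODE M21. Other steps ran in Python 3.11.15 (pandas 2.3.3, numpy 2.4.6, scipy 1.17.1), and figures were drawn by matplotlib 3.10.9.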

Additional observations from a re-analysis of the deposited data

Results flagged for a closer look

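The change from mESCs differed between the sorted lineages for 2 of the 5 tested genes, by the edgeR contrast of XEN-like against ectoderm-like cells, in which 5.81% of all genes were called lower and 6.98% higher. For Meis1 the log2 change was smaller in XEN-like cells by -1.394 (adjusted p = 0.0133), with both XEN-like libraries below both ectoderm-like ones. That call was lost without ectoderm-like replicate 1 (edgeR adjusted p = 0.148), XEN-like replicate 1 (0.0705) or XEN-like replicate 2 (0.103). For Meis2 it was smaller by -4.369 (edgeR adjusted p = 0.0025), again with both libraries below both. The filter on low counts favours this call, since Meis2 entered largely through the ectoderm-like cells. What part the ectoderm, XEN and pluripotency markers present in the sorted cells have in these differences was not tested.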

How the results depend on the processing

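Meis1 and Meis2 in ectoderm-like cells against mESCs and Meis2 between the lineages were past the threshold in 11 of 11 alternatives, the sizes of the Meis2 values ranging from 2.11 to 4.61 and from -5.22 to -4.02. Meis1 between the lineages was past it in 8 of 11. Of 163 refitted log2 values of members, 146 kept direction and side, 10 lost their call, 4 gained one and 3 turned: Pknox1 in ectoderm-like cells (-0.27 without mESC replicate 1, and -0.44 to 0.44 over the libraries left out) and Meis2 in XEN-like cells against mESCs (0.25 without mESC replicate 1, range -2.34 to 0.25). Genes called numbered 1711, 2040 and 1144 (ectoderm-like and XEN-like cells against mESCs, and XEN-like against ectoderm-like cells). With each library left out they numbered 861 to 1748, 1270 to 1966 and 300 to 1370, the lowest without ectoderm-like replicate 2, XEN-like replicate 1 and ectoderm-like replicate 1. DESeq2 called 1111 in the first and 717 in the third. Members called in XEN-like cells against mESCs went from 2 to 1 with DESeq2 and with the 4 compared libraries alone, and were 1 to 3 with a library left out. Between the lineages they were 1 to 2. Without TMM the median of all genes in ectoderm-like cells against mESCs moved from 0.05 to 0.36 and the calls were 1366 higher and 588 lower, against 881 and 830. In XEN-like cells against mESCs they were 1339 and 703, against 1100 and 940. DESeq2 gave 470 higher and 247 lower between the lineages, against 624 and 520. With a replicate block members called stayed at 3, 2 and 2 while genes called were 2173, 2527 and 1518. Replicate numbers shared deviations by correlations of 0.103 (mESCs and ectoderm-like cells), 0.0215 (mESCs and XEN-like cells) and 0.326 (the 2 lineages). The labels do not say whether the same replicate number of both lineages came from 1 culture. Scaled to Gapdh, 0 members were lower in the ectoderm-like culture, and with a sorted library left out, an alternative added after the data were seen, 1 to 2 were, 2 without ectoderm-like replicate 2. Of the members' other values, 93 of 99 CPM ratios, 106 of 108 SCRB-seq levels, 22 of 24 SMART-seq2 shares and 9 of 9 ratios of Meis1, Pbx2 and Pknox1 between clusters stayed within the counting intervals of the reported values, although the intervals of the refitted Meis1 and Pbx2 ratios included 1 in 3 and 2 of 3 settings. Of 82 headline values under these alternatives, 61 stayed the same and 21 moved. Without a filter Pbx3 was called in ectoderm-like cells against mESCs (edgeR adjusted p = 0.0120) and between the lineages (0.0331), and Meis2 in XEN-like cells against mESCs (0.0329). Rescaling SMART-seq2 cells cannot change a share above 0. Counts of Meis3, Pbx3 and the XEN-like Meis2 are near the limit of the depth. The causes of these shifts were not tested.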

Other observations

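Pknox1 went from 53 UMIs in 273 SCRB-seq cells at 60 h to 2 UMIs in 235 cells at 72 h, a ratio of 0.0496 (0.0059 to 0.188), and back to 12 UMIs in 137 cells at 96 h. In the bulk libraries of the same times it stood at 5.40, 7.08 and 8.71 CPM. Pbx3 showed a change in the other direction between the same plates, from 0.0581 to 0.275 UMIs per 10000 (ratio 4.73, 2.30 to 10.7), with 2 UMIs at both times in bulk. Each time point is 1 plate, and a cause was not tested.

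At 12 h Meis2 was lower than in the first mESC library in bulk (ratio 0.364, 0.177 to 0.702) and stood at 5.73 CPM (13 UMIs) beside 2.61 CPM (6 UMIs) in the second, too few UMIs for a comparison. In SCRB-seq the 6 h plate held 2.18-fold the 0 h level of Meis2 (1.42 to 3.44) and the 12 h plate 0.162 against 0.154 UMIs per 10000. SMART-seq2 found Meis2 above 1 RPKM in 45.1% of mESCs.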
